A study of Drosophila melanogaster with 2 samples.

Results

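The genes described here were 60 homeobox genes of Drosophila melanogaster, listed by symbol in 7 classes, of 13945 protein-coding genes annotated on the 6 main chromosome arms. The list held 11 genes of the Hox complexes, 9 other Antennapedia-type genes, 10 NK genes, 16 paired and paired-like genes, 4 LIM genes, 5 TALE genes and 5 genes of the SINE, CUT and zinc finger classes. All 60 symbols were matched to a protein-coding gene. The data were chromatin immunoprecipitation sequencing (ChIP-seq) of CG11294, itself a paired-like homeobox gene on the list, in whole prepupae aged 1 day. The animals came from the transgenic strain CG11294-GFP and carried a CG11294-eGFP fusion protein. An anti-GFP antibody pulled down the fusion according to the sample description, whereas the antibody label named CG11294. The samples formed 1 group of 2 biological replicates, and sex was not collected. The promoter that drives the fusion, the number of animals pooled and the rearing of the replicates were not stated. No untagged or input sample was analysed here.

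The homeodomain is a compact helical DNA-binding fold, and many homeodomains read short AT-rich words built around TAAT. Paired-like proteins can also bind as dimers to a pair of inverted TAAT words separated by a few bases. Homeobox genes are known in the fly for laying down the body axis, giving segments and appendages their identity, and specifying neurons, muscles and eyes, and many of them control one another. Whole-animal chromatin mixes all of these tissues, so a site used in few cells and a weak site in many cells cannot be told apart.

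Peaks came as 4 lists, of which 2 were made from both replicates' alignments and 1 from each replicate alone. The authors call the first of these conservative, a name used for peaks that agree between replicates, and it is called the agreement list here (3260 peaks on the arms). The second is called the pooled list (4328 peaks), although the pooling step itself is not described. Replicate 1 alone had 3217 peaks, and replicate 2 alone had 2708. Every listed peak had an irreproducible discovery rate (IDR) of 0.01 or less in a far longer ranked list of 65336 to 99186 peaks on the arms. The IDR estimates how likely a peak is not to recur between repeat measurements. A gene was called near a transcription start site (TSS) when a peak summit lay within 1 kb of any of its annotated TSSs, and called in its body when a summit lay between the ends of the gene. Unless another list is named, calls refer to the agreement list. Signal is the authors' own peak value and serves only to rank peaks within a list. The sequencing depth behind the lists was unknown.

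The following windows of 121 bases around summits are shown because they carry the calls: the sites near NK7.1 and tin were in every list, those of zfh1 and ct were in every list within a gene body, Antp and Abd-B held the sites of the Hox genes, and bcd was called only in the pooled list and replicate 1. The site of inv was also in every list within a gene body, and its window is not shown. They were read from the RefSeq Release 6 genome (dm6), 5′ to 3′ on the plus strand, and capitals mark TAAT and CACTG with their reverse complements ATTA and CAGTG.
NK7.1, chr3R:14370657-14370777, plus strand: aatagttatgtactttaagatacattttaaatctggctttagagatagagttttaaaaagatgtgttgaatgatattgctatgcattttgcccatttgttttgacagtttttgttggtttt
NK7.1, chr3R:14373309-14373429, plus strand: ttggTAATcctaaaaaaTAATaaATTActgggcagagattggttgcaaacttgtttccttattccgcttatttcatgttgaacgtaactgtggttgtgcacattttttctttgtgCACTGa
tin, chr3R:21378734-21378854, plus strand: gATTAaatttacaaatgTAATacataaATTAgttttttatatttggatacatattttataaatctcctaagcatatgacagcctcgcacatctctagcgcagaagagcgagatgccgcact
zfh1, chr3R:30781723-30781843, plus strand: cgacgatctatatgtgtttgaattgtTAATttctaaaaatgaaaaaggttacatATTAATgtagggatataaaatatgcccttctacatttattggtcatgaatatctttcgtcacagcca
ct, chrX:7651769-7651889, plus strand: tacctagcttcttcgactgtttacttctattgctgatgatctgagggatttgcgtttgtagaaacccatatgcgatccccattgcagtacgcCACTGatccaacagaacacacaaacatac
Antp, chr3R:6920160-6920280, plus strand: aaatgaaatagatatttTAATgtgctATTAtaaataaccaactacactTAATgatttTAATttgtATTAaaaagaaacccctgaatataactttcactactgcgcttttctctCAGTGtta
Abd-B, chr3R:16958115-16958235, plus strand: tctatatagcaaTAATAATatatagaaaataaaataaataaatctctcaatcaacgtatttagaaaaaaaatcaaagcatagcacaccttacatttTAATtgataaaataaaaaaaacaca
bcd, chr3R:6759461-6759581, plus strand: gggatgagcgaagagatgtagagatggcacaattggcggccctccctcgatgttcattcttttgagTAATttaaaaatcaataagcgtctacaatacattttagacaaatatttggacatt
The 2 NK7.1 windows differed in content. The window inside the gene held none of the marked words, while the window upstream held an inverted pair of TAAT words, TAAT and ATTA spaced by 2 bases. Within 100 bp of the summit inside the gene, CACTG was present, beyond the ends of the window shown. The upstream window of NK7.1 and the windows at tin, zfh1, Antp and Abd-B held several TAAT words each. The window at ct held CACTG without TAAT. TAAT was common, being within 100 bp of 92.4% of all summits of the agreement list. Antp had 4 sites, and another of them, not shown, held neither TAAT nor CACTG within 100 bp of its summit.

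Near a TSS, 2 of the 60 homeobox genes (3.33%, Wilson 95% interval 0.919 to 11.4%) had a summit, against 1648 of all 13945 protein-coding genes (11.8%). This interval covers counting error over genes only, and no test was made because the list was drawn up with results of these data known. Both genes, NK7.1 and tin, belonged to the NK class, and no gene of the other 6 classes was called. Genes with a summit in the body numbered 9 of the 60 homeobox genes (15%, interval 8.10 to 26.1%), against 8.84% of protein-coding genes. By either rule, 10 homeobox genes (16.7%) were called, against 15.5% of protein-coding genes, so that the share over both rules lay near the background. The homeobox genes were longer, with a median of 15.4 kb against 2.17 kb, and shares by gene length are given further below.

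**Figure D1:**
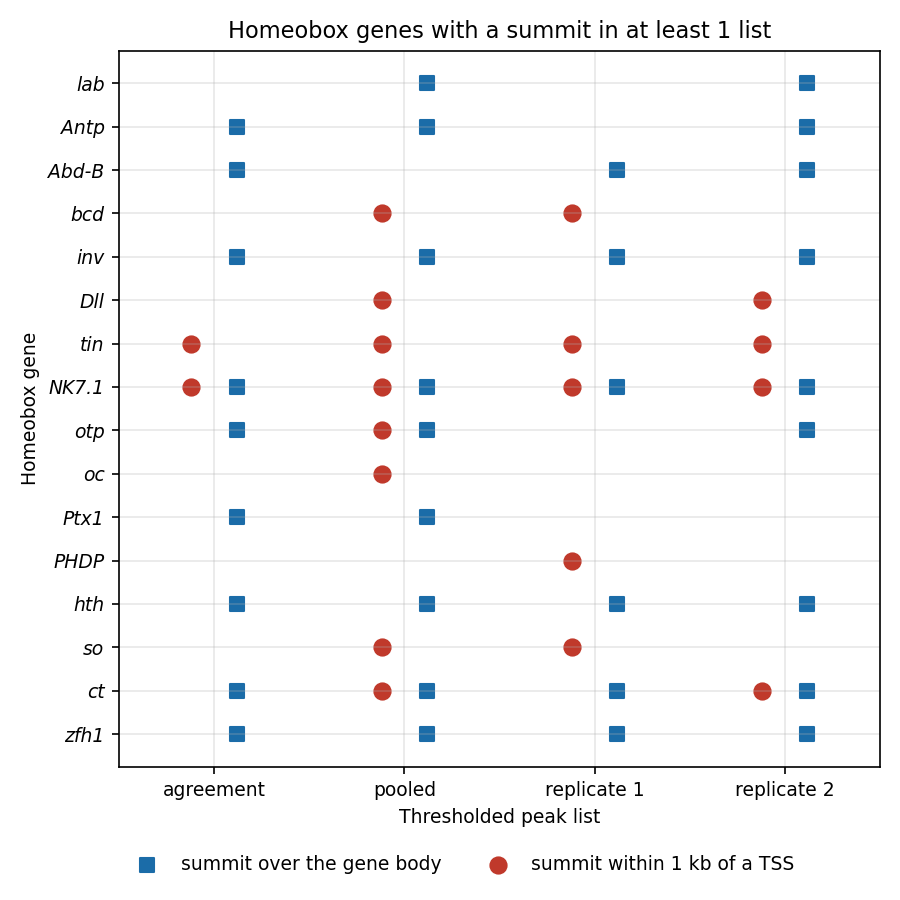
The 16 homeobox genes (vertical axis) called in at least 1 of the 4 lists (horizontal axis), with the kind of call marked in each cell. NK7.1 and tin were called near a TSS in all 4 lists, and Dll, bcd, so, otp, oc, ct and PHDP were called there only outside the agreement list.

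NK7.1 (FBgn0024321, chr3R:14329413-14372951, minus strand) is a member of the NK homeobox class. It had 4 of the 18 distinct sites at homeobox genes in the agreement list. Its strongest site lay in an intron 709 bp upstream of an internal TSS, with a signal of 420 and rank 156 of 3261. The signal at this site was 229 in replicate 1 and 193 in replicate 2, with the lowest IDR in the files, 1e-05, in each. A second site lay 418 bp upstream of the gene's outermost TSS, with signals of 124 in replicate 1, 122 in replicate 2 and 259 in the agreement list. Both of these sites were in the lists of both replicates. The remaining 2 NK7.1 sites were intronic, 15.9 kb and 13.0 kb downstream of its nearest TSS, and the nearest TSS of any gene was that of Dnaaf5. Of these, the site with signal 110 was in the list of replicate 1 only, and the site with signal 81.6 was in neither replicate's list.

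tin (tinman, FBgn0004110, chr3R:21378977-21381970, plus strand), which specifies the heart and dorsal mesoderm, had a single site 183 bp upstream of its TSS. The signal there was 138 in replicate 1, 73.5 in replicate 2 and 220 in the agreement list, where it ranked 554. The site was in all 4 lists. The neighbouring NK cluster genes bap, which acts in the visceral mesoderm, lbl, lbe and slou, which act in muscle identity, and C15, which patterns the tip of the leg, were not called in any list. The 178 kb from the start of tin through slou contained 2 summits, 11.2 per Mb, against 24.4 per Mb over the arms. The tin site lay 183 bp outside this span and was not among the 2, which were nearest to lncRNA:CR44032 and sp3. Dr, vnd and scro, which act in the nervous system, were also not called in any list. The best ranked peaks near their TSSs had a signal of 36.3 at Dr (rank 9631, IDR 0.138) and 39.8 at vnd (rank 7753, IDR 0.403), and scro had none.

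Among the Hox genes, which give segments along the body their identity, Antp and Abd-B had sites in introns and none near a TSS. Antp, a gene of thoracic identity, had 4 sites, 47.9 to 86.7 kb inside its 103 kb gene, with signals of 63.4 to 79.4. 1 of them was in the list of replicate 2, and the other 3 were in neither replicate's list. Of these 3, 2 lay closer to a TSS of the noncoding RNA gene lncRNA:CR43252 than to one of Antp. Abd-B, a gene of posterior abdominal identity, had 1 site 2.11 kb downstream of a TSS, with a signal of 50.6 that ranked 3046. That site was in the list of replicate 1 and was not in the pooled list. The body of lab, which acts in the head and midgut, held a summit in the pooled list (signal 56.9) and in the list of replicate 2, but none in the agreement list.

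The other Hox-complex genes were not called in the agreement list. The Antennapedia complex spans 338 kb and had 4 summits, all within Antp, or 11.8 per Mb. The bithorax complex spans 316 kb and had 1 summit, the Abd-B site, or 3.17 per Mb. Over the arms there were 24.4 per Mb. These small counts depended on the list. The Antennapedia complex had 7 summits in the pooled list and 2 in the list of each replicate. The bithorax complex had 1 in the pooled list, 2 in replicate 1 and 1 in replicate 2. bcd, the maternal determinant of the anterior pole, was called 55 bp upstream of its TSS in the pooled list (signal 68.4, rank 3227). The signal there was 36.5 in replicate 1 (IDR 0.00227) and 24.2 in replicate 2 (IDR 0.191), and the IDR in the ranked agreement list was 0.0221. pb, a gene of mouthpart identity, had the highest ranked peak among the homeobox genes called in no list, with a signal of 56.0, rank 4274 and IDR 0.504. The next in its class was zen, which patterns dorsal tissue, with a signal of 40.7 and IDR 0.706. Scr had no ranked peak within 1 kb of a TSS in any list.

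Of the other Antennapedia-type genes, inv alone was called in the agreement list. inv, which acts with its neighbour en in posterior compartments, had a site 24952 bp downstream of its nearest TSS with a signal of 95.6. The site was in the lists of both replicates, with signals of 57.0 in replicate 1 and 45.1 in replicate 2. en itself had no call in any list. Ranked peaks near the TSS of ems and unpg, which act in the head and nervous system, had signals of 37.2 (IDR 0.602) and 37.1 (IDR 0.484).

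Dll, which is needed for the distal parts of limbs, had very different peaks in the replicates. A peak 105 bp upstream of its TSS had a signal of 17.6 in replicate 1, with rank 12449 and IDR 0.764, and of 231 in replicate 2, with rank 106 and IDR 1e-05. In the pooled list the peak had a signal of 260 and rank 417. In the ranked agreement list it held rank 429 but had an IDR of 0.263 and so was not called. A further Dll peak 1002 bp upstream, just outside the window of 1 kb, was in the agreement list with a signal of 118, and its signal was 26.2 in replicate 1 and 88.5 in replicate 2. The 201 bases around these Dll summits had 66.7% and 60.2% GC. Peaks of replicate 2 that overlapped none of replicate 1 reached 50% GC in 22.2% of 938 cases, and peaks of replicate 1 that overlapped none of replicate 2 in 1.79% of 1454. The part of base composition in the Dll difference was not tested.

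**Figure D2:**
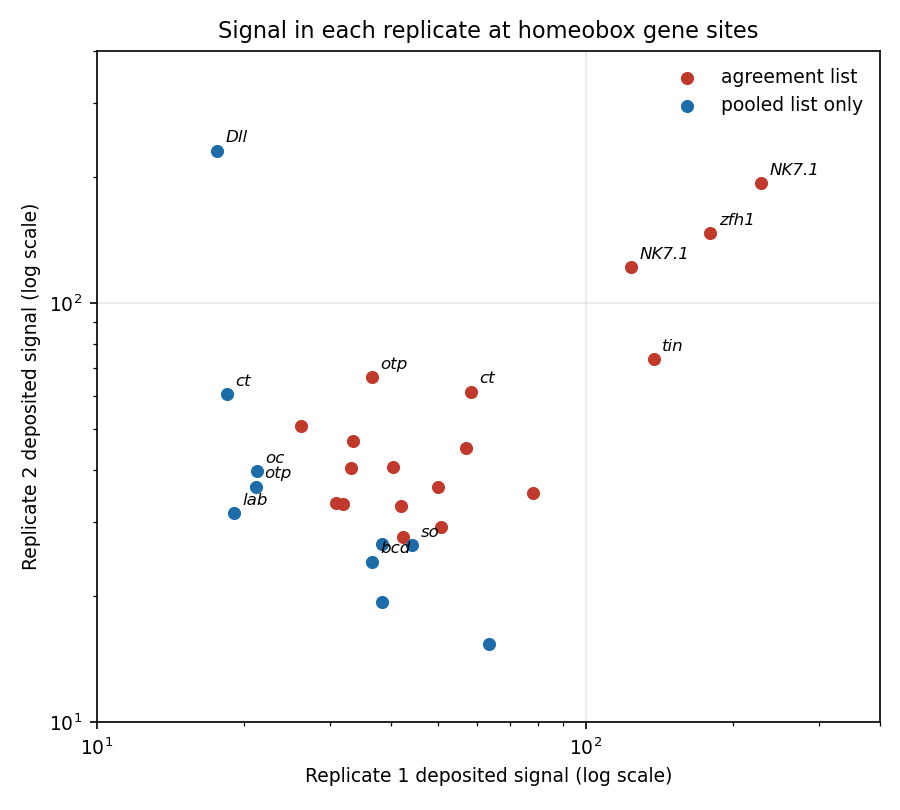
Deposited signal in replicate 1 (horizontal axis, log scale) against replicate 2 (vertical axis, log scale) at the 18 sites of homeobox genes in the agreement list and at 10 of the 12 sites that were only in the pooled list. The other 2, at ct and hth, had no ranked peak in replicate 1. Dll stands apart at 17.6 and 231, and the sites of zfh1, tin and the NK7.1 pair near a TSS lie at the high end of both replicates.

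In the paired and paired-like class, otp and Ptx1 were called, both in a coding exon. otp, which acts in the hindgut and brain, had a site with a signal of 100, and this site was in the list of replicate 2 only. Ptx1, the fly's Pitx-type gene, had a site with a signal of 64.3 that was in neither replicate's list. These were the 2 most GC-rich of the 18 sites, at 55.2% and 56.7% over 201 bases. The nearest TSS was that of Cib2 for the otp site and of lncRNA:CR44041 for the Ptx1 site. The pooled list added peaks near the TSSs of otp (signal 61.5) and of oc, a gene of head and photoreceptor development (signal 61.4). Their IDRs in the ranked agreement list were 0.0205 at otp and 0.0182 at oc. PHDP was called near its TSS in replicate 1 only, with a signal of 25.5. Among the class members with no call, the highest ranked peaks were at hbn (signal 40.7, IDR 0.198) and at the photoreceptor gene Pph13 (signal 33.5, IDR 0.089).

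CG11294 (FBgn0030058, chrX:8691820-8693620, minus strand), the gene whose product was pulled down, had no ranked peak within 1 kb of its TSS in any of the 4 ranked lists. Its nearest summit in the agreement list lay 12.2 kb away at CAH3, with a signal of 237. The nearest summit of any ranked peak lay 1337 bp upstream of the TSS, in replicate 1, where it ranked 9038. Eye selector genes ey and toy, of the same class, lie on chromosome 4 together with onecut and zfh2, and none of the 4 was called. Chromosome 4 had 1 summit in the agreement list, 0.742 per Mb, against 21.7 to 27.1 per Mb on the other arms, and 1 of its 80 protein-coding genes was called (1.25%).

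None of the 4 LIM genes, which act in wing and motor neuron identity, was called in any list. The best ranked peaks near their TSSs were at Lim1 (signal 46.1, IDR 0.0721) and at tup (signal 34.8, IDR 0.785). Among the TALE genes, hth, a cofactor of Hox proteins, had 3 intronic sites with signals of 53.4 to 91.1 in its 132 kb gene. 1 of these was in the list of replicate 1, and the other 2 were in neither. The pooled list held 3 further hth sites, and the 3 hth sites in the list of replicate 2 overlapped none of the agreement list. exd, its partner, was not called, and neither were the iroquois genes ara, caup and mirr, which pattern the notum and dorsal eye. The ranked peaks near mirr (signal 33.4) and ara (signal 27.8) had IDRs of 0.578 and 0.483. The 130 kb of the iroquois complex held 1 summit, nearest to lncRNA:CR44552.

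zfh1, which acts in mesoderm and motor neurons, had the strongest site in the body of a homeobox gene that was over 1 kb from every protein-coding TSS. The site lay in an intron 1475 bp upstream of a TSS, with signals of 180 in replicate 1, 147 in replicate 2 and 327 in the agreement list (rank 258). It was in the lists of both replicates. ct, which acts in sense organs and the wing margin, had an intronic site 43.4 kb inside the gene with signals of 58.2 in replicate 1, 61.5 in replicate 2 and 125 in the agreement list. It too was in the lists of both replicates. so, an eye gene, was called near its TSS in the pooled list (signal 85.8) and in replicate 1, with an IDR in the ranked agreement list of 0.0111, just above the threshold of 0.01. A peak near a ct TSS was called in the pooled list (signal 59.1) and in replicate 2.

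**Figure D3:**
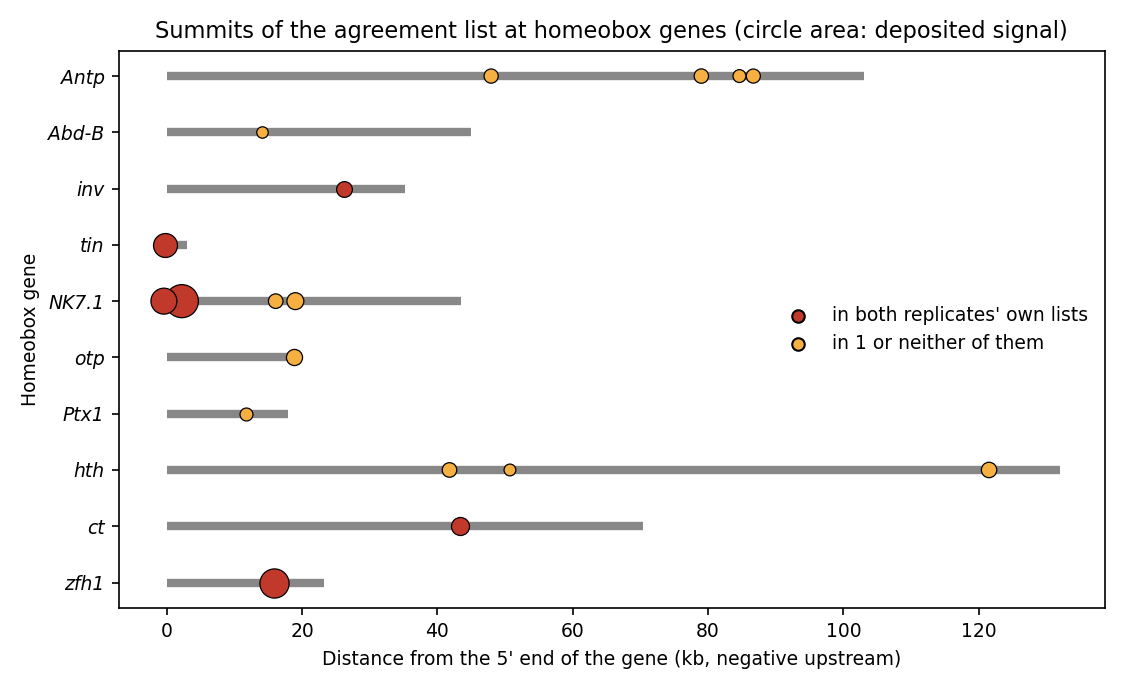
Positions of the 18 agreement-list sites along the 10 homeobox genes that had one, by distance in kb from the gene's 5′ end (horizontal axis), with 1 line per gene. Circle area follows the deposited signal, and colour marks sites in both replicates' own lists. 3 sites lie within 1 kb of a TSS, at NK7.1 and tin, and the other 15 lie within gene bodies.

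Over all lists, 9 homeobox genes were called near a TSS in at least 1 list, and 2 in all 4. By either rule, 16 were called in at least 1 list, and 6 in all 4, namely inv, tin, NK7.1, hth, ct and zfh1, though the sites of hth differed between lists. The other 44 were called in none. The pooled list called 8 homeobox genes near a TSS (13.3%), against 15.7% of protein-coding genes. Replicate 1 alone called 5 (8.33%), against 13.5%, and replicate 2 alone called 4 (6.67%), against 10.3%. The share of homeobox genes was below that of protein-coding genes in each of these lists, on small counts. The lists come from the same 2 replicates, and NK7.1 and tin were called in each, so the lists are not independent. With peaks listed by each replicate on its own, 2 were called near a TSS, against 7.26% of protein-coding genes, 4 in the body (6.67%), against 5.96%, and 5 by either rule (8.33%), against 10.1%. With the strongest 1630 peaks, 2 were called near a TSS, against 7.47%, 3 in the body, against 5.70%, and 4 by either rule, against 10.1%. A window of 2000 bp gave 4 near a TSS (6.67%), against 15.6%, and a window of 5000 bp gave 6 (10%), against 26.4%. In the bodies, the pooled list and replicate 2 each called 9 homeobox genes (15%), against 11.0% and 8.29% of protein-coding genes, and replicate 1 called 6 (10%), against 8.94%. By either rule, the pooled list called 14 homeobox genes (23.3%), against 19.9% of protein-coding genes, replicate 2 called 11 (18.3%), against 13.5%, and replicate 1 called 10 (16.7%), against 17.2%. The share by either rule was therefore above the background in some lists and below it in others.

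Of the 18 sites at homeobox genes, 6 (33.3%) were listed by each replicate on its own and 7 (38.9%) by neither, against 54.8% and 12.3% of the 3260 peaks. The median signal was 86.3 at these 18 sites, against 110 over the list, and 5 of the 18 were above that median. Among body summits over 1 kb from every protein-coding TSS, 3 of 15 in homeobox genes (20%) were in both replicates' lists, against 690 of 1325 in all genes (52.1%). The corresponding shares in neither list were 46.7% and 14.5%. The median signal of these summits was 81.6 in homeobox genes and 103 in all genes.

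The homeobox genes were long, with a median length of 15.4 kb, against 2.17 kb for protein-coding genes. Their bodies held 16 summits over 1.24 Mb, 1.29 per 100 kb, against 2.37 per 100 kb for protein-coding genes, where overlapping genes were counted more than once. Among genes of 20 kb or longer, 7 of 22 homeobox genes (31.8%) had a body summit, against 45.3% of protein-coding genes. Near a TSS, 1 of these 22 homeobox genes was called (4.55%), against 21.9%. The limit of 20 kb was chosen after seeing the data, and the 4 homeobox genes of 50 kb or longer went the other way, with 3 called in the body (75%), against 54.1% of protein-coding genes. From 20 to 50 kb, 4 of 18 homeobox genes (22.2%) had a body summit, against 41.5%, and from 5 to 20 kb 2 of 21 (9.52%), against 20.9%.

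Most homeobox genes had a ranked peak, as did most protein-coding genes. Within 1 kb of a TSS, 48 of the 60 (80.0%) had a peak in the ranked agreement list, against 73.1% of protein-coding genes, and the median best signal, with absent peaks set to 0, was 27.8 against 23.4. Among genes with such a peak, 2 of 48 homeobox genes were called, against 16.2% of protein-coding genes. Of the 44 homeobox genes called in no list, 32 had such a ranked peak, with signals of 10.8 to 56.0 and a median of 29.2, and the best ranked 4274. Scr, scro, CG11294, toy, caup, onecut and zfh2 had none in any of the 4 ranked lists.

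The distance to the nearest summit extended the count near TSSs. Outside chromosome 4, the median distance over 56 homeobox genes was 26.1 kb (quartiles 12.8 to 59.6), against 13.9 kb (4.57 to 34.4) over 13865 protein-coding genes. Within 5 kb, 10.7% of the homeobox genes had a summit, against 26.5% of protein-coding genes, and within 20 kb 39.3% against 60.4%. By class, again outside chromosome 4, the median was 121 kb for the 11 Hox genes, 46.8 kb for the 5 TALE genes and 19.4 to 26.7 kb for the other 5 classes. Genes of a complex often shared a nearest summit, so these distances were not independent. For pb, Dfd, Scr, ftz, zen and bcd it was the same summit in Antp, which was in neither replicate's own list. The TALE genes caup and mirr also shared a nearest summit. The nearest summit to scro lay 1845 kb away, and even the ranked agreement list had no peak within 5 kb of its TSS. Of the 50 homeobox genes not called in the agreement list, chromosome 4 included, 24 had their nearest summit within 1 kb of a TSS of another gene. Some of these genes shared a summit, such as ey, toy, onecut and zfh2, whose nearest was at PlexA. The share over all uncalled protein-coding genes was not computed, so the count shows nothing particular to homeobox genes.

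**Figure D4:**
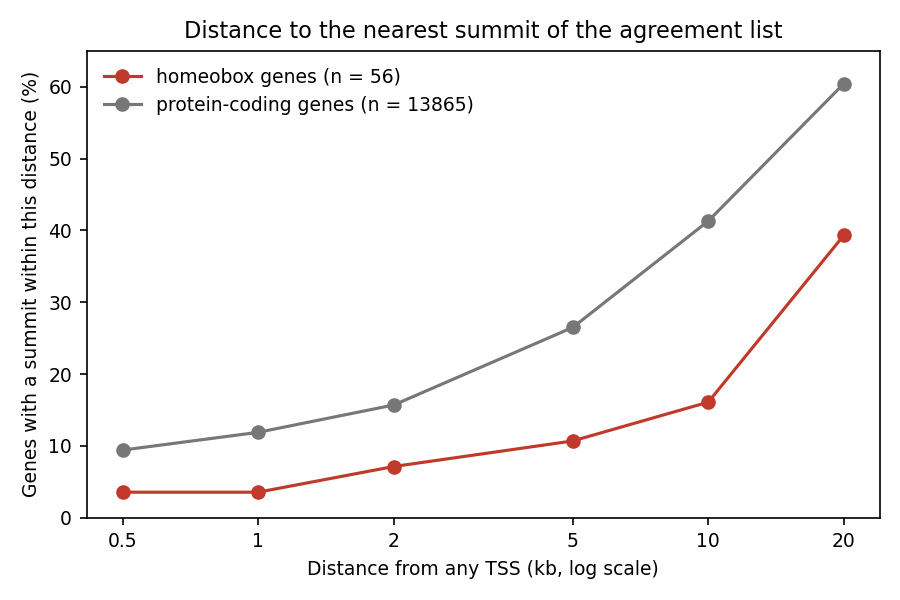
Share of genes (vertical axis, percent) with an agreement-list summit within a given distance of a TSS (horizontal axis, kb), for 56 homeobox genes and 13865 protein-coding genes outside chromosome 4. The line of the homeobox genes lies below, at 10.7% against 26.5% within 5 kb.

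Promoters of the homeobox genes differed from those of other genes in base composition and in neighbours. From 250 bases before to 50 after the 5′ end of the gene, GC was 52.2 ± 7.76% (SD over 60 genes), against 39.1 ± 7.74% over protein-coding genes. Where promoter GC was 45% or more, 2 of 51 homeobox genes (3.92%) were called near a TSS, against 10.8% of protein-coding genes. The TSS of another protein-coding gene lay within 1 kb of 3 homeobox genes (5%), against 42.9% of protein-coding genes. Among genes with no such neighbour, 2 of 57 homeobox genes (3.51%) were called, against 7.90% of protein-coding genes. With both limits, the shares were 2 of 49 (4.08%) and 9.33%. The share of homeobox genes was the lower in each of these comparisons, on a count of 2 genes.

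**Figure D5:**
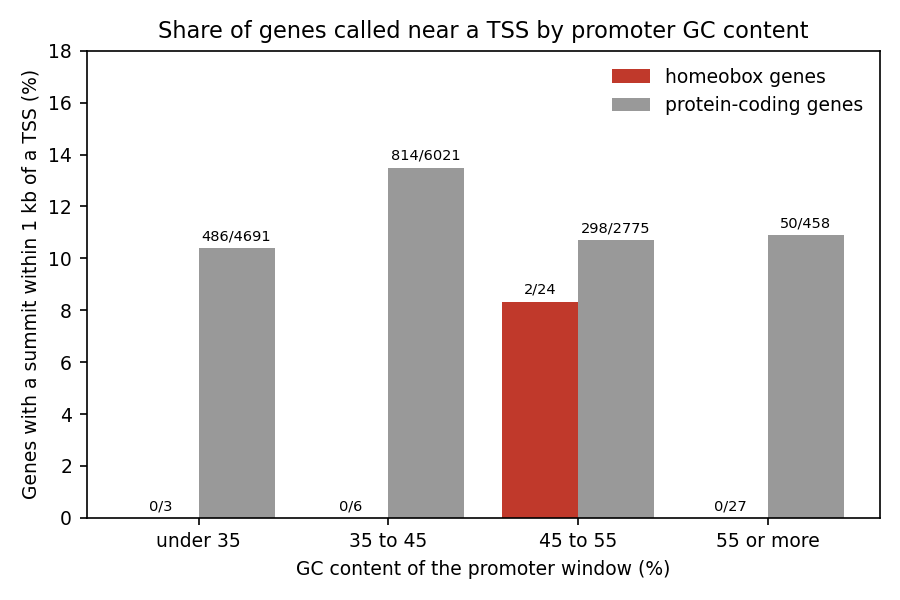
Share of genes called near a TSS (vertical axis, percent) by promoter GC (horizontal axis, percent), for homeobox genes and protein-coding genes. The 2 called homeobox genes fall in the bin of 45 to 55% GC, and none of 27 was called at 55% or more, where 10.9% of protein-coding genes were.

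The sequence around the 18 summits at homeobox genes was searched within 100 bp on both strands. TAAT was present at 12 (66.7%), against 92.4% of the 3260 summits. CACTG was present at 12 (66.7%), against 52.9%. The palindrome TAATTA was present at 2 (11.1%), against 16.5%. These were the intronic NK7.1 sites with signals of 110 and 81.6, while the strongest NK7.1 site, also intronic, had none. TAAT followed by ATTA after a spacer of 2 bases was present at 2 (11.1%), against 2.58%, and these were the upstream site of NK7.1 and the site of Abd-B. The same pair with a spacer of 3 bases was present at none of the 18, against 2.76% of all summits. A TAATTA also counts as a TAAT. The GC content over 201 bases was 38.0 ± 8.27% at the 18 summits and 35.7 ± 6.98% over the list (SD). These shares describe few sites, and 11 of the 18 lie in 3 genes, so they are not independent.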

How the data were processed

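ChIP-seq peak lists of 2 biological replicates in 1 group were analysed on dm6, the build named in the labels. Each peak carried the authors' signal value, of unstated scale, and in ranked lists a deposited −log10 of the global IDR. All peaks of the thresholded lists had a −log10 IDR of 2 or more, an IDR of 0.01 or less, from the values. Aligner and peak caller versions are not given in the sources used here. The agreement list is the list named conservative in the deposited file listing; both it and the pooled list derive from both replicates' alignments, per that listing. Peak summits were set against Ensembl release 115 gene models of the same assembly (Python 3.11.15, numpy 2.4.6, pandas 2.3.3, scipy 1.17.1, matplotlib 3.10.9). Wilson intervals were at 95%. Counting of calls near a TSS was tested on simulated data. No model was fitted, since there was 1 group. The members, classes and lists were chosen with earlier results of these data known. Named were all called genes, those called near a TSS in another list only, the 2 uncalled genes per class with the strongest ranked peak, and CG11294. Other genes were named after their values were seen. Depth, and hence precision per peak, was unknown. Alternatives varied the list, the window, the gene body and the word window.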

Additional observations from a re-analysis of the deposited data

How the results depend on the processing

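The count of homeobox genes called near a TSS depended on the list and window. It was 8 in the pooled list, 4 within 2000 bp and 6 within 5000 bp, and each replicate alone gave 4 to 5, against 2 as reported. Genes called in the body numbered 4 with peaks in both replicates' own lists and 3 with the strongest 1630 peaks, against 9, and each replicate alone gave 6 to 9. By either rule these settings gave 5 and 4, against 10, while the pooled list gave 14 and each replicate alone gave 10 to 11. Within 50 bp of the summits, TAATTA was at 0 of 18 sites, against 2 within 100 bp, the inverted pair with a spacer of 2 bases at 1 (5.56%) and CACTG at 4 (22.2%). The smaller window lowered the shares over all 3260 summits too. They were 9.94% for TAATTA, 1.32% for the pair and 19.0% for CACTG, against 16.5%, 2.58% and 52.9% within 100 bp. The limits by gene length, promoter GC and neighbouring TSS were chosen after seeing the data. No paired analysis was possible because the samples formed 1 group. With 2 replicates, unknown depth and no control analysed here, peaks near the IDR threshold cannot be placed firmly on either side of it, and a gene not called was not detectable in these lists, not shown to lack the protein. Genes of chromosome 4 had few ranked peaks of any kind.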

Other observations

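Of the 73 ranked peaks that passed the IDR threshold but were missing from the agreement list, none lay at a homeobox gene. Homeobox genes held only 18 of the 3260 peaks of the agreement list itself, so none among 73 says little about them. A width of 340 bp was shared by 13 of the 18 sites at homeobox genes (72.2%), against 64.7% of the list. The sites at NK7.1 and tin near a TSS, and those of zfh1 and ct, were narrower than that.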
